A study of Homo sapiens with 9 samples.

Results

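The forkhead transcription factors are described here across 9 cultures of neural crest-like cells grown in 3 media. A locus was taken as a member when its symbol was FOX followed by 1 letter from A to S and a number, which selected 44 of 25593 loci. All 44 had a quantification status of OK. Of these, 20 reached 1 FPKM in at least 3 libraries and are described in detail, and 24 did not. FPKM is a fragment count scaled to transcript length and to the mapped fragments of the library.

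The cells came from H9, an established line of human embryonic stem cells. Clumps of H9 were first differentiated for 6 days with 10 µM SB431542, which blocks the receptors for TGF-β, Activin and Nodal, and sorted for high CD271 without CD73 according to the growth protocol, although the cell type label lists the cells as positive for both. All cultures were then grown in a chemically defined medium on fibronectin at 5% oxygen and harvested at passage 6 to 7: group F with 5 to 10 ng/ml of the growth factor FGF2 alone, group FSB with FGF2 plus 3 to 5 µM SB431542, and group F_FSB with FSB for 4 passages followed by F for 3. Each group had 3 libraries, given as biological replicates of this 1 cell line, and F_FSB cultures were split from cells expanded in FSB, so that every group had met the inhibitor during differentiation.

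Forkhead proteins share a winged-helix DNA-binding domain and are named by letter for subfamilies related in sequence. The FOXC, FOXD, FOXF, FOXL and FOXS members mark mesenchymal and neural crest derivatives, and FOXO members are held out of the nucleus by AKT signalling. FOXM1 drives genes of mitosis, and FOXK1, FOXK2, FOXN2, FOXN3, FOXP1, FOXP4, FOXJ2 and FOXJ3 are broadly expressed regulators. In the neural crest, FOXD3 is a factor of the early, premigratory stage, whereas FOXC1 and FOXC2 are used in the mesenchyme of the head and eye.

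Deposited FPKM added up to between 361026 and 506146 in a library, with the highest sum in F_FSB replicate 2. The tables hold no fragment counts. A rough estimate from 2 to 8 olfactory receptor genes per library put F_FSB replicate 2 at 60.0% of the highest depth and the other 8 libraries at 82.2% or more, so low values are least precise in F_FSB replicate 2. On the log2(FPKM + 1) scale, Pearson's r across genes, which are not independent replicates, was 0.964 to 0.983 within FSB, 0.943 to 0.959 within F and 0.916 to 0.947 within F_FSB, against 0.837 to 0.887 between FSB and F_FSB. The summed FPKM of a list of 10 premigratory crest markers was 274 to 331 in FSB, 126 to 166 in F and 104 to 114 in F_FSB, with PAX7 at 0 in every library and ZIC1 below 0.1 FPKM throughout. That of 7 pluripotency markers was 104 to 119 in FSB, 3.62 to 10.5 in F and 5.99 to 7.99 in F_FSB, of which LIN28A made up 79.5 FPKM in the FSB mean while POU5F1 stayed at a mean of 0.0649 FPKM in FSB. In bulk samples, fewer cells of a type and less RNA per cell cannot be told apart, and the part of such differences in the forkhead changes was not tested.

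Summed over all 44 loci, mean forkhead FPKM (± SD, n = 3) was 192 ± 29.8 for F, 207 ± 14.7 for FSB and 218 ± 41.2 for F_FSB. As a share of the FPKM sum of the library it was 0.0459% to 0.0616% in F and 0.0496% to 0.0578% in FSB. In F_FSB it was 0.0430% to 0.0719%, lowest in replicate 2, so the groups overlapped. FOXC1 gave the highest FPKM of the family in 6 libraries and FOXM1 in the remaining 3. Between 16 and 19 members reached 1 FPKM in a library, and 14 reached it in all 9. Members whose canonical GENCODE transcript is a single exon passed in 6 of 14 cases, and those with several exons in 14 of 30. The lowest group means among the 20 belonged to FOXE3 and FOXD2, which passed only through FSB. FOXD1 passed only through F and FOXS1 only through F_FSB, so these 4 genes had to differ between groups to be tested. Their values are given as a description, and the counts of calls below are over the other 16. Just outside the filter were FOXF1 and FOXO6, at 1 FPKM or more in 2 libraries and in 1. A threshold of 0.5 FPKM would have admitted 21 members and a threshold of 2 FPKM 19.

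**Figure D1:**
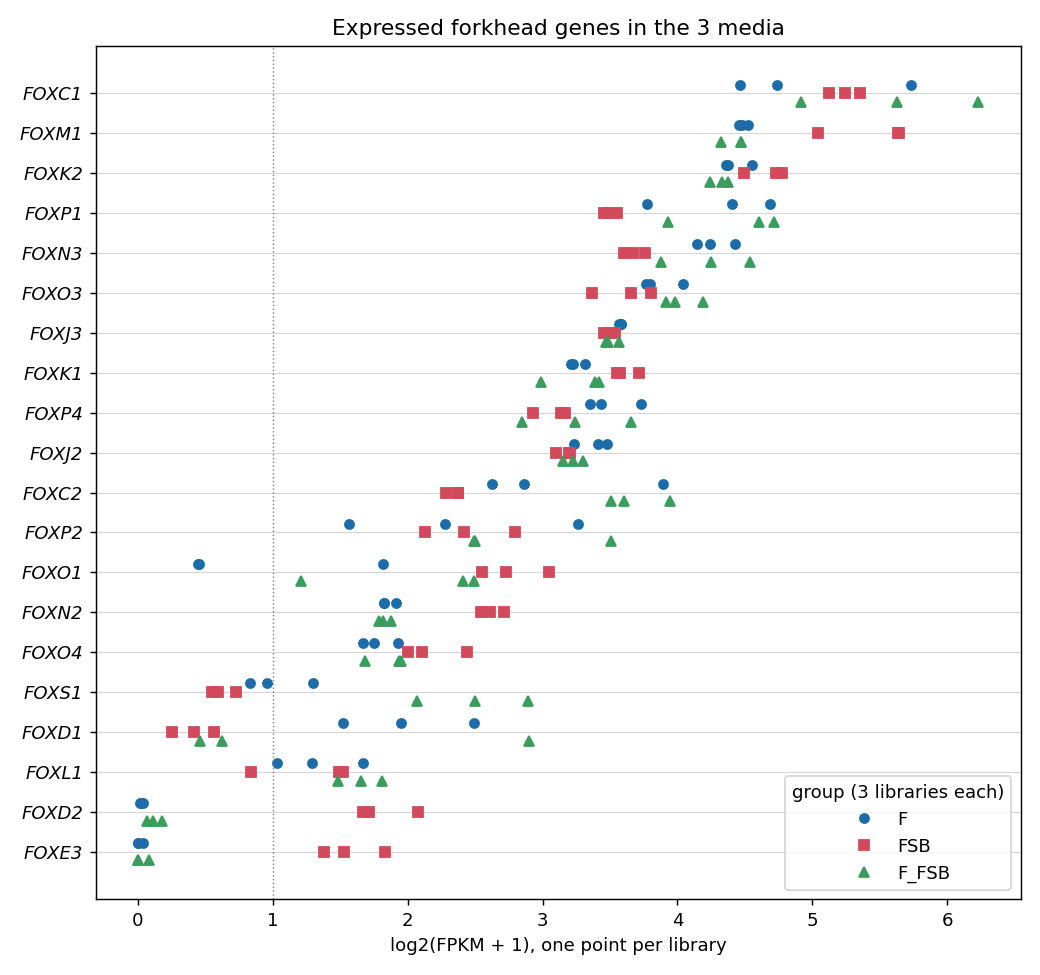
Level of the 20 expressed forkhead genes as log2(FPKM + 1) on the horizontal axis, with 1 point per library, coloured and shaped by group, and genes ordered by mean. FOXC1 is at the top of the range, the FSB points of FOXM1 and FOXN2 lie to the right of the others, and those of FOXD2 and FOXE3 stand alone above the dotted line at 1 FPKM.

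Upstream sequences are printed for the most abundant member (FOXC1), the member with the highest called change on the log2(FPKM + 1) scale in FSB among those counted below (FOXO1), a member that fell (FOXN3) and the single member promoter with the letters ATAAACA (FOXO3). They are the 250 bases before the start in RefSeq's GRCh38.p14 table. On GRCh37 each matched once on the gene's strand of its own chromosome, outside annotated exons. Other chromosomes were not searched. Bases run 5′ to 3′ on the gene's strand, and capitals mark a match to a searched motif.
FOXC1, GRCh37 chr6:1609900-1610149, plus strand: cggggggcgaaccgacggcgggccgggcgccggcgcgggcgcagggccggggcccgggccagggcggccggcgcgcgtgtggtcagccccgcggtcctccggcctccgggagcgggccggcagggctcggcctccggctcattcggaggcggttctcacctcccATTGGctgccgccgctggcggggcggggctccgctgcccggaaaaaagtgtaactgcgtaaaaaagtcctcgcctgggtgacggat
FOXO1, GRCh37 chr13:41240779-41241028, minus strand: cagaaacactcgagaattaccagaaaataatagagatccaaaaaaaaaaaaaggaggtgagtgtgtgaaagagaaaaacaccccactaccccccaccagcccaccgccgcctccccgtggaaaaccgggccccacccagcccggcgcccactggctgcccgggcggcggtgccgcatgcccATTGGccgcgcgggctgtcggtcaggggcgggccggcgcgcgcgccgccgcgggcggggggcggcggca
FOXN3, GRCh37 chr14:90085510-90085759, minus strand: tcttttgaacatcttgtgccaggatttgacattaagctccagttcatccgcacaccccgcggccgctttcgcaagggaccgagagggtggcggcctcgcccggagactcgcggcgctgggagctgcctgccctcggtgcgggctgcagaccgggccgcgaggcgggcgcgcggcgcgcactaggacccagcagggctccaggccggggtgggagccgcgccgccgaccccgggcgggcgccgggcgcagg
FOXO3, GRCh37 chr6:108881870-108882119, plus strand: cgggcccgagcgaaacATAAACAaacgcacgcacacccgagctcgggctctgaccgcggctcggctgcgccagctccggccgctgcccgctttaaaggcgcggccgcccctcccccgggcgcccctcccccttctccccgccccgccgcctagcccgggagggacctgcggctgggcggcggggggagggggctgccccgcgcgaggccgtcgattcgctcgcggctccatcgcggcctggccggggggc

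These 4 windows hold 37, 27, 33 and 37 CpG dinucleotides in that order and are 76.8%, 67.2%, 73.6% and 78.4% G or C. In FOXC1 and FOXO1 the capitals are a CCAAT box read on the opposite strand, which starts 86 and 69 bases before the start of the gene. In FOXO3 they are the forkhead core ATAAACA, 234 bases before a start that lies inside the FOXO3 locus of the tables. Over the 35116 promoters of the table, the median was 11 CpG. It was 27 over the 25 promoters of members that passed and 19 over the 19 promoters of members that did not. In all, 33 of 44 members had 44 promoters in the table, from 0 CpG in a FOXP2 promoter to 44 in that of FOXK1. Genes with several promoters differ among them, as FOXO3 does with 2 CpG at another start. The 25 promoters of members that passed belong to 14 genes. FOXC2, FOXE3, FOXF1, FOXL1, FOXM1, FOXN2 and FOXS1 are among the 11 members without a promoter in the table, so these values do not cover them.

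Motifs were searched on both strands. GTAAACA was in 1 of the 44 member promoters (FOXP1) and in 2.98% of all promoters, and ATAAACA was in 1 (FOXO3) and in 3.77%. CCAAT was in 9 of 44 and in 32.0%. The AP-1 letters TGACTCA were in 1 (FOXO3) and in 4.20%, and TATAAA was in 3 (FOXA3, FOXP3 and FOXR2) and in 10.7%. Neither the GLI letters GACCACCCA (0.199% of all promoters) nor the SMAD palindrome GTCTAGAC (0.182%) were in these windows of the members. Members without a promoter in the table, FOXM1, FOXN2, FOXC2 and FOXF1 among them, could not be searched. The motifs do not overlap one another in the windows shown.

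Cells kept with the inhibitor were compared with cells grown in FGF2 alone (FSB minus F), then cells from which it had been withdrawn with cells kept in it (F_FSB minus FSB), and last the switched cells with those in FGF2 alone throughout (F_FSB minus F). The comparisons share libraries, so their values stand side by side and are not independent. Changes are differences of log2(FPKM + 1), which understates the change of low genes. They were tested two-sided with limma over 13216 genes, with Benjamini-Hochberg (BH) adjustment and a threshold of 0.05. Shares and medians of all genes are over these 13216. They keep genes that passed the filter through a single group, which the counted forkhead genes leave out, so the sets are not fully alike.

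In FSB minus F, 4 of 16 forkhead genes were higher (FOXO1, FOXM1, FOXN2 and FOXK1), beside 28.5% of all genes tested. FOXP1 and FOXN3 were lower, 2 of 16 beside 13.4% of all genes. Libraries of FSB and F were fully separated for 11 of 16 forkhead genes, beside 57.9% of all genes. The median change was 0.02 for the 16 forkhead genes and 0.14 for all genes, and the median absolute change 0.38 and 0.34. Of all calls, 68% were higher, a split that became 50.4% when libraries were scaled by median ratios, 53.2% after quantile normalization and 61.7% after scaling to the same sum.

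In F_FSB minus FSB, 4 of 16 were higher (FOXC2, FOXP1, FOXN3 and FOXO3), beside 13.7% of all genes. Another 4 were lower (FOXM1, FOXN2, FOXK1 and FOXK2), beside 28.2% of all genes. Full separation was seen for 10 of 16, beside 55.8% of all genes. The median change was 0.12 for the forkhead genes and -0.13 for all genes, and the median absolute change 0.38 and 0.35. Of all calls, 32.7% were higher, or 48.8%, 44.9% and 25.4% under the same 3 scalings.

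In F_FSB minus F, no forkhead gene passed in either direction with limma, beside 0% of all genes higher and 0.00757% lower, which is the single gene GAS1. Among the 16, only FOXO1 had an unadjusted limma p under 0.05 (0.0361), beside 1195 of all 13216 genes. Full separation was seen for 1 of 16 forkhead genes, FOXJ3, which was below F in every switched library, beside 13% of all genes. The median absolute change was 0.14 for the forkhead genes and 0.13 for all genes.

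**Figure D2:**
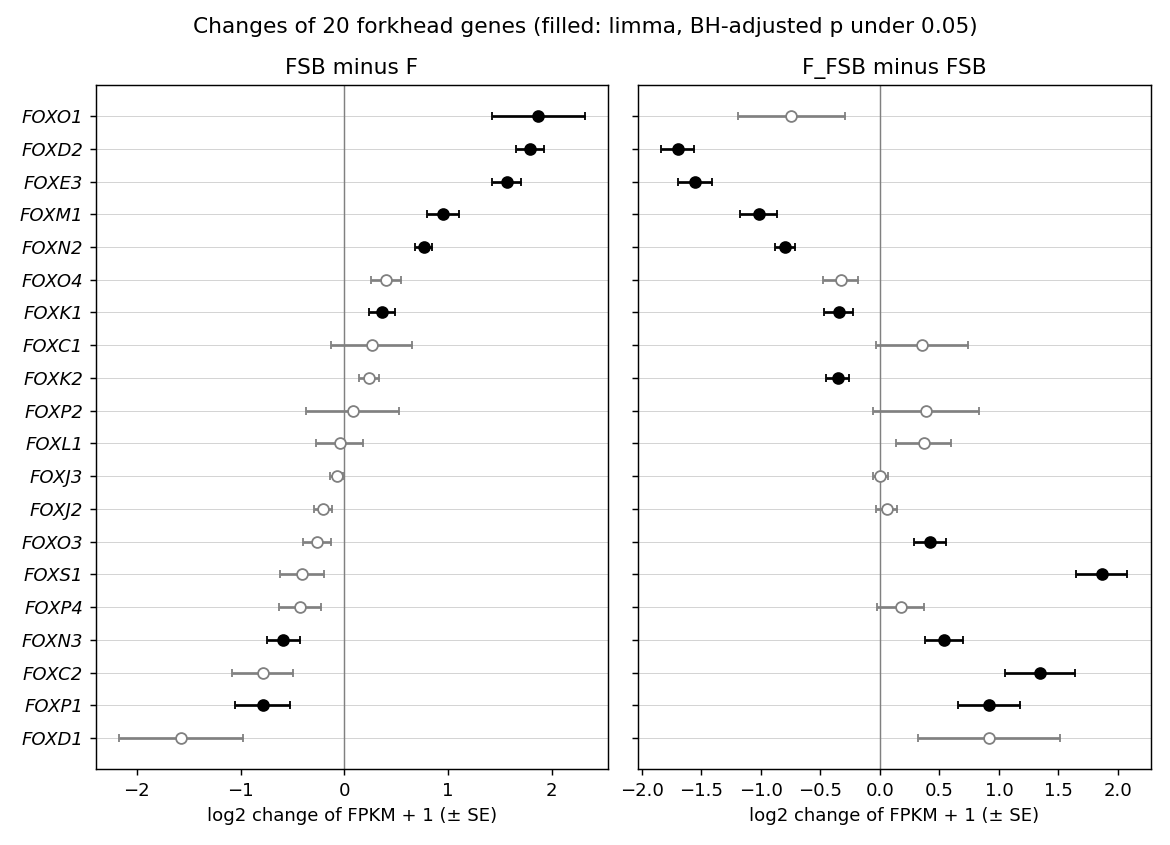
Log2 change of FPKM + 1 with its SE for the 20 tested forkhead genes, FSB minus F on the left and F_FSB minus FSB on the right, with genes in the same order and filled points for a limma BH-adjusted p under 0.05. The 2 panels share the FSB libraries. FOXO1, FOXD2 and FOXE3 are the highest on the left, FOXS1 and FOXC2 the highest on the right. FOXD1, FOXD2, FOXE3 and FOXS1 passed the filter through a single group, so the fill of their points is not read as a call.

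FOXD2 and FOXE3 reached 1 FPKM in FSB libraries only. FOXD2, a gene of embryonic mesenchyme, was at 2.18, 2.28 and 3.22 FPKM in the 3 FSB libraries, at 0.0182, 0.0268 and 0.0103 in F and at 0.0465, 0.0835 and 0.132 in F_FSB. The difference was 1.79 (SE 0.14) in FSB minus F and -1.70 (SE 0.14) in F_FSB minus FSB. FOXE3, known for its role in the lens, was at 1.61, 2.55 and 1.89 FPKM in FSB. In F it was listed at 0, 0.0269 and 0, and in F_FSB at 0.0584, 0 and 0. The difference was 1.57 (SE 0.14) and -1.55 (SE 0.14). Both genes entered the tested set through their FSB libraries alone, so no p-value is read for them. The pair sit 18.0 kb apart on chromosome 1, FOXE3 at 47881744 to 47883724 and FOXD2 at 47901689 to 47906363 (GRCh37).

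FOXC1, FOXF2 and FOXQ1 are neighbours on chromosome 6, and FOXF1, FOXC2 and FOXL1 on chromosome 16, and members of a cluster did not share a pattern. FOXC1, a regulator of mesenchyme of the eye and head, was at 52.1, 21.0 and 25.6 FPKM in F, at 36.8, 39.9 and 33.8 in FSB and at 74.1, 48.3 and 29.1 in F_FSB. The groups overlapped, F and F_FSB ranged widely around the tight FSB libraries, and no comparison passed. FOXF2, 215 kb away, had its highest value at 0.244 FPKM, and FOXQ1, a further 75.1 kb away, at 0.0491 FPKM.

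FOXC2, which is needed in lymphatic vessels and skeletal mesenchyme, was at 13.9, 5.18 and 6.28 FPKM in F, at 4.18, 4.17 and 3.88 in FSB and at 14.4, 10.4 and 11.2 in F_FSB. Every FSB library was below every other, and the switched cells overlapped with F. FOXC2 rose in F_FSB minus FSB by 1.34 (SE 0.30, limma BH-adjusted p = 0.00805), while FSB minus F was -0.79 (SE 0.30, limma BH-adjusted p = 0.0631) and did not pass. FOXL1, a gene of gut mesenchyme 9.58 kb from FOXC2, was at 2.18, 1.04 and 1.45 FPKM in F, at 1.87, 1.81 and 0.789 in FSB and at 2.16, 1.80 and 2.50 in F_FSB. Its groups overlapped and no comparison passed. FOXF1, a Hedgehog-responsive gene of visceral mesenchyme 52.8 kb on the other side of FOXC2, was at 1.10, 0.875 and 2.00 FPKM in FSB, at 0.0460, 0.0812 and 0.545 in F and at 0.198, 0 and 0.367 in F_FSB. It thus went the opposite way from FOXC2 in FSB, with no overlap, but reached 1 FPKM in only 2 libraries and was not tested. Without a filter on low values its change was 0.92 in FSB minus F and -0.95 in F_FSB minus FSB (limma BH-adjusted p = 0.0361 and 0.0316). That fit also passed FOXD3 in both comparisons (limma BH-adjusted p = 0.0403 and 0.0398), although its highest value was 0.0250 FPKM. FOXD4 passed as lower in FSB minus F (limma BH-adjusted p = 0.0411). The fit thus passes genes near 0 FPKM, and no call is read from it for FOXF1.

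**Figure D3:**
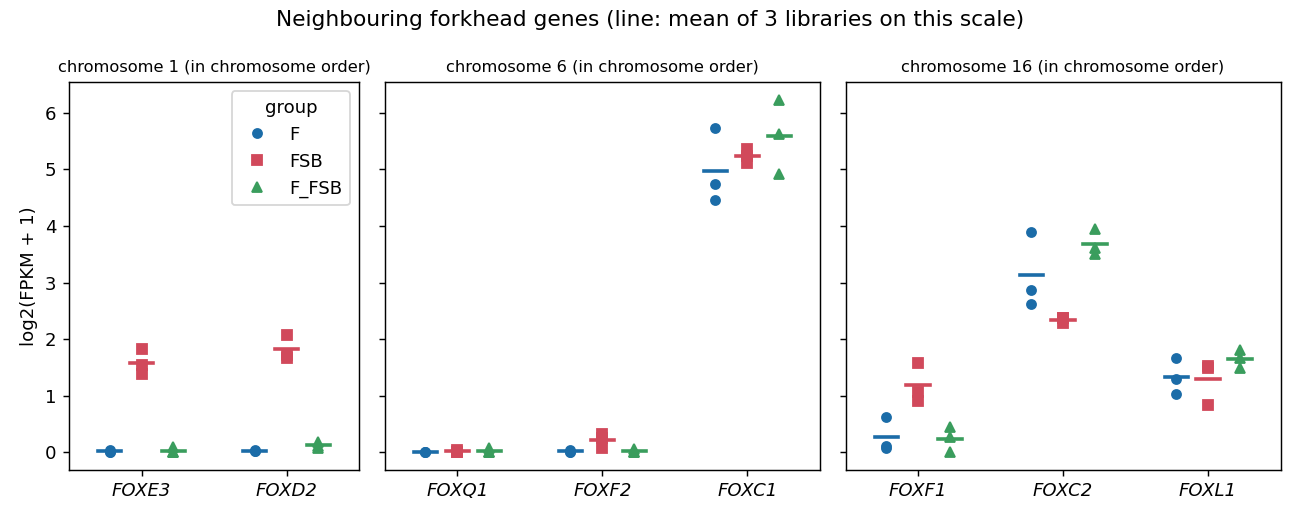
Log2(FPKM + 1) of forkhead genes that are neighbours on chromosomes 1, 6 and 16, with 1 point per library and a line at the mean of the 3 libraries of each group. FOXE3 and FOXD2 are high in FSB alone, whereas on chromosome 16 FOXF1 is highest and FOXC2 lowest in FSB.

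FOXS1, expressed in pericytes and in crest-derived sensory neurons, was at 1.46, 0.945 and 0.783 FPKM in F, at 0.513, 0.659 and 0.461 in FSB and at 4.66, 6.44 and 3.19 in F_FSB. All switched libraries were above all others, and FSB was below F without overlap. The difference was 1.86 (SE 0.21) in F_FSB minus FSB, with no p-value read because FOXS1 passed the filter through F_FSB alone. In F_FSB minus F the difference was 1.46 (SE 0.21), and for the same reason no p-value is read. A list of 9 pericyte markers summed to 218 to 272 FPKM in F, 288 to 326 in FSB and 233 to 289 in F_FSB, and its part in the FOXS1 values was not tested. In that list 7 genes were tested. In F_FSB minus FSB 2 were higher and 1 lower, beside 13.7% and 28.2% of all genes, and 4 did not pass. The median change was 0.03, beside -0.13 for all genes. ANPEP and CSPG4 rose in F_FSB minus FSB by 3.06 and 1.84 (limma BH-adjusted p = 0.00184 and 0.00149). MCAM, the most abundant member in FSB, was lower (limma BH-adjusted p = 0.0293), at 122 to 178 FPKM in FSB and 34.4 to 67.0 in F_FSB.

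FOXD1, a marker of renal stroma and pericyte progenitors, was at 4.64, 1.86 and 2.87 FPKM in F, at 0.337, 0.477 and 0.192 in FSB and at 0.377, 0.542 and 6.48 in F_FSB. F was above FSB without overlap. In F_FSB a single library, replicate 3, lay above F while the other two were at the level of FSB, the widest spread of any expressed member in a group (SD 1.36 on the log2 scale). The difference in FSB minus F was -1.58 (SE 0.60), with no p-value read because FOXD1 passed the filter through F alone. Its SE includes the shared spread, to which F_FSB replicate 3 adds. FOXO6, a FOXO member known mainly from the brain, was also highest in F_FSB replicate 3, at 1.26 FPKM, against 0.209 and 0.377 in the other switched libraries, 0.930, 0.145 and 0.347 in F and 0.0222, 0.0694 and 0.0471 in FSB. It reached 1 FPKM in that library alone and was not tested.

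FOXM1, the activator of genes of the G2 phase and mitosis, was at 49.0, 48.6 and 31.9 FPKM in FSB, at 21.0, 21.2 and 22.0 in F and at 21.2, 21.1 and 19.0 in F_FSB. FSB was above the rest in every library, replicate 3 less so, and F and F_FSB overlapped. FOXM1 was higher by 0.95 (SE 0.15) in FSB minus F and lower in F_FSB minus FSB, at -1.02 (SE 0.15), with limma BH-adjusted p of 0.00233 and 0.00168. In F_FSB minus F it was -0.06 (SE 0.15, limma BH-adjusted p = 0.905).

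Of 16 mitosis genes known as FOXM1 targets, 14 were higher and 1 lower in FSB minus F, beside 28.5% and 13.4% of all genes. Their median change was 0.91 beside 0.14 for all genes. In F_FSB minus FSB 15 were lower and 1 higher, beside 28.2% and 13.7% of all genes. The median was -0.97 beside -0.13, and in F_FSB minus F none passed with limma (median -0.05). The mitotic kinase AURKB rose by 1.32 in FSB minus F and the cyclins CCNB1 and CCNB2 by 1.06 and 1.12, with limma BH-adjusted p of 0.00128, 0.00331 and 0.00418. CDC25B, a phosphatase that activates the cyclin-dependent kinases, was the gene that went the other way, at -0.76 and then 1.19 (limma BH-adjusted p = 0.0379 and 0.00606). The sum of the 16 genes was 427 to 667 FPKM in FSB, with replicate 3 lowest as for FOXM1, 267 to 341 in F and 296 to 327 in F_FSB.

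**Figure D4:**
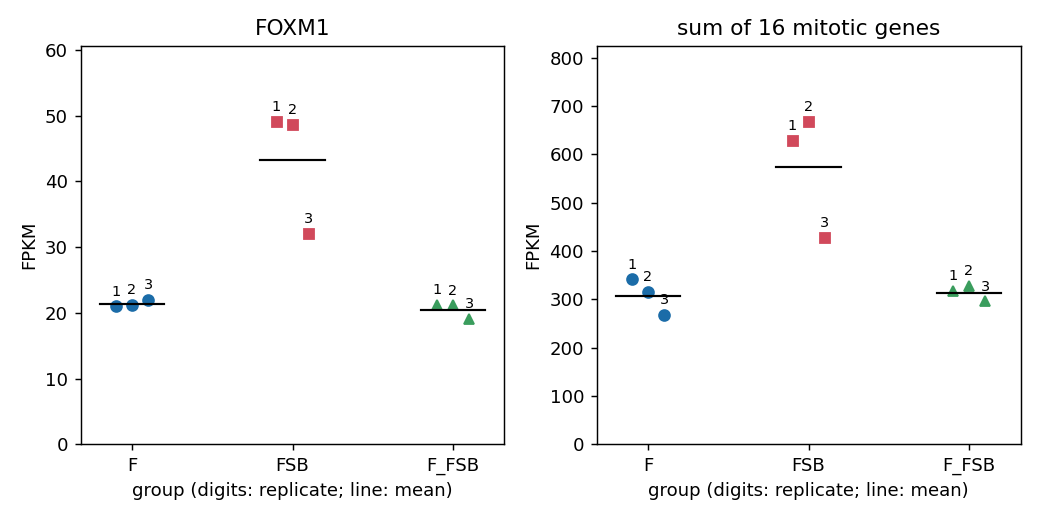
FPKM of FOXM1 on the left and the summed FPKM of 16 mitotic genes on the right, with 1 numbered point per library and a line at the group mean. In both panels the FSB libraries are above all others, with FSB replicate 3, at 31.9 FPKM of FOXM1, closest to them.

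The FOXO factors, which activate genes of stress resistance and cell cycle arrest when AKT signalling is low, differed among themselves. FOXO1 was at 2.53, 0.363 and 0.373 FPKM in F, at 5.64, 4.87 and 7.28 in FSB and at 4.32, 4.61 and 1.31 in F_FSB. FSB did not overlap with either group, and F replicate 1 and F_FSB replicate 3 stood apart from the others of their groups. FOXO1 rose by 1.87 (SE 0.45, limma BH-adjusted p = 0.0123) in FSB minus F. Withdrawal gave -0.74 (SE 0.45, limma BH-adjusted p = 0.218), and F_FSB minus F gave 1.13 (SE 0.45, limma BH-adjusted p = 0.542).

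FOXO3 was at 12.6, 15.4 and 12.9 FPKM in F, at 13.0, 11.6 and 9.31 in FSB and at 14.1, 17.2 and 14.8 in F_FSB, so that only FSB and F_FSB were apart. It rose by 0.42 (SE 0.14) in F_FSB minus FSB (limma BH-adjusted p = 0.0381). The near-identical copy FOXO3B was listed at 6.82 to 9.05 FPKM, and fragments can be divided between the copies, so FOXO3 is uncertain. FOXO4 was at 2.19, 2.36 and 2.80 FPKM in F, at 3.31, 3.02 and 4.43 in FSB and at 2.82, 2.21 and 2.86 in F_FSB. Its FSB libraries were above the rest, but the change of 0.40 (SE 0.14) in FSB minus F did not pass (limma BH-adjusted p = 0.0532).

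Of 15 tested FOXO target genes, 2 were higher and 2 lower in FSB minus F (median -0.05), beside 28.5% and 13.4% of all genes. Withdrawal (F_FSB minus FSB) left 2 higher and 3 lower (median 0.15), beside 13.7% and 28.2%. PIK3IP1, an inhibitor of PI3K, fell by 0.89 and then rose by 1.32 (limma BH-adjusted p = 0.00385 and 0.000773). FBXO32, a ubiquitin ligase of muscle atrophy, fell by 1.27 and CITED2, a transcriptional coregulator, rose by 1.55 in FSB minus F (limma BH-adjusted p = 0.0133 and 0.0141). In F_FSB minus FSB the cell cycle inhibitor CDKN1B fell by 0.52 and the mitochondrial superoxide dismutase SOD2 fell by 0.57 (limma BH-adjusted p = 0.00143 and 0.00642). Among 16 genes that control FOXO activity or location, 5 were higher and 2 lower in FSB minus F (median 0.15), and 4 were higher and 6 lower in F_FSB minus FSB (median -0.15), beside the same shares and medians of 0.14 and -0.13 for all genes. The exportin XPO1 rose by 0.57 and fell by 0.73, and the kinase STK4 rose by 0.67 and fell by 0.50. For XPO1 the limma BH-adjusted p was 0.00105 and 0.000394, and for STK4 it was 0.00163 and 0.00561. The 14-3-3 protein YWHAZ rose by 0.76 in FSB minus F (limma BH-adjusted p = 0.00305).

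Relatives within the FOXN group moved in opposite directions. FOXN2 was at 4.84, 5.55 and 5.10 FPKM in FSB, at 2.78, 2.55 and 2.55 in F and at 2.45, 2.53 and 2.68 in F_FSB. FOXN3, a transcriptional repressor linked to the DNA damage checkpoint, was at 11.8, 11.2 and 12.5 FPKM in FSB, at 17.9, 20.5 and 16.7 in F and at 22.2, 18.0 and 13.7 in F_FSB. Each gene kept FSB apart from all other libraries, FOXN2 above and FOXN3 below. FOXN2 rose by 0.77 (SE 0.08) in FSB minus F and fell by 0.80 (SE 0.08) in F_FSB minus FSB, with limma BH-adjusted p of 0.000492 and 0.000431. FOXN3 fell by 0.59 (SE 0.16) and rose by 0.54 (SE 0.16), with limma BH-adjusted p of 0.0196 and 0.0267.

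The FOXP factors are repressors that bind DNA as dimers. FOXP1 was at 24.8, 12.7 and 20.1 FPKM in F, at 10.3, 10.7 and 9.97 in FSB and at 25.2, 23.3 and 14.2 in F_FSB, with FSB below every other library. It fell by 0.79 (SE 0.26) in FSB minus F and rose by 0.91 (SE 0.26) in F_FSB minus FSB, with limma BH-adjusted p of 0.0420 and 0.0239. FOXP2, known from speech and language, was at 8.61, 3.85 and 1.96 FPKM in F, at 3.38, 4.35 and 5.94 in FSB and at 10.4, 4.65 and 4.63 in F_FSB. Its groups overlapped, and replicate 1 was the highest library in F and in F_FSB. FOXP4 was at 9.82, 12.2 and 9.20 FPKM in F, at 7.98, 7.81 and 6.61 in FSB and at 11.6, 8.47 and 6.22 in F_FSB. F was above FSB without overlap, but the change of -0.43 (SE 0.20) did not pass (limma BH-adjusted p = 0.118).

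FOXK1 and FOXK2, which repress autophagy genes in fed cells, changed by small amounts. FOXK1 was at 12.1, 10.7 and 10.9 FPKM in FSB, at 8.93, 8.34 and 8.28 in F and at 9.46, 9.71 and 6.95 in F_FSB. FOXK2 was at 26.4, 25.6 and 21.5 FPKM in FSB, at 19.5, 19.7 and 22.4 in F and at 19.7, 19.1 and 17.9 in F_FSB. FSB was apart from both groups for FOXK1, and from F_FSB only for FOXK2. FOXK1 rose by 0.36 (SE 0.12) and fell by 0.35 (SE 0.12), with limma BH-adjusted p of 0.0415 and 0.0487, and FOXK2 fell by 0.35 (SE 0.10) in F_FSB minus FSB (limma BH-adjusted p = 0.0207). FOXJ2 and FOXJ3, relatives of the cilia factor FOXJ1, varied little: FOXJ3 was between 9.99 and 11.0 FPKM and FOXJ2 between 7.58 and 10.2 FPKM over the 9 libraries. Neither passed in any comparison on the deposited scale. In FSB minus F, both passed as lower with scaling by median ratios (limma BH-adjusted p = 0.0264 for FOXJ2 and 0.0400 for FOXJ3) and with quantile normalization (0.0211 and 0.0334).

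Of the 6 counted calls in FSB minus F, those of FOXM1, FOXN2 and FOXO1 held in all 19 alternative analyses, which include leaving out each library in turn. Of the 8 in F_FSB minus FSB, 3 did: FOXC2, FOXM1 and FOXN2. The calls of FOXK1, FOXN3, FOXP1, FOXK2 and FOXO3 were lost in some, by scaling, by filter or by the library left out. FOXK1 did not pass in FSB minus F under any of the 3 scalings (limma BH-adjusted p = 0.129 to 0.138), nor in F_FSB minus FSB with median ratios or quantile normalization (0.160 and 0.163). FOXK2 did not pass in F_FSB minus FSB with the same 2 scalings (0.146 and 0.103). FOXN3 and FOXO3 did not pass there with scaling to the same sum (0.113 and 0.117). Without a filter on low values FOXK1 and FOXP1 did not pass in FSB minus F (0.0771 and 0.107), nor FOXK1, FOXN3, FOXO3 and FOXP1 in F_FSB minus FSB (0.0655 to 0.0893). In FSB minus F, FOXN3 no longer passed without F replicate 2, FSB replicate 1 or FSB replicate 2 (highest limma BH-adjusted p = 0.0659). FOXP1 no longer passed without F replicate 1, F replicate 3 or any FSB library (up to 0.119), and FOXK1 without any of the F or FSB libraries (up to 0.127). In F_FSB minus FSB, FOXN3 and FOXP1 no longer passed without FSB replicates 1 or 2 or F_FSB replicates 1 or 2, FOXP1 also without FSB replicate 3, with limma BH-adjusted p of up to 0.0831 and 0.0739. FOXK2 no longer passed without FSB replicates 1 or 2 or F_FSB replicate 3 (up to 0.0750) and FOXO3 without F replicate 3, FSB replicates 2 or 3 or F_FSB replicates 2 or 3 (up to 0.106). FOXK1 passed there only when F_FSB replicate 2 was the library left out, with limma BH-adjusted p of up to 0.145 for the others.

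Genes on the inputs of forkhead factors were described from lists. FOXH1, the partner of SMAD2 and SMAD3 that carries Nodal and Activin signals to DNA, was at 0.491 FPKM in F_FSB replicate 2 and at 0.0264 in replicate 3, and in the other 7 libraries its listed values were under 0.1 FPKM. Of 15 genes of Nodal signalling and its SMADs, 6 were tested, and 4 were higher in FSB minus F (median 0.32) and 5 lower in F_FSB minus FSB (median -0.53), beside 28.5% and 28.2% of all genes. The activin receptor ACVR2B rose by 2.19 and fell by 2.06, and SMAD4 rose by 0.30 and fell by 0.40. Their limma BH-adjusted p were 5.82e-05 and 9.01e-05, and 0.0151 and 0.00407. SMAD2 rose by 0.35 in FSB minus F and ACVR1B fell by 0.66 in F_FSB minus FSB (limma BH-adjusted p = 0.0106 and 0.00108).

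Hedgehog signalling, an inducer of FOXF and FOXC genes in mesenchyme, was read from 14 genes, of which 8 were tested. In FSB minus F 1 was higher and 2 were lower (median -0.19), beside 28.5% and 13.4% of all genes, and in F_FSB minus FSB 1 was lower (median -0.16), beside 28.2%. The receptor and target PTCH1 rose by 1.34 and fell by 1.64 (limma BH-adjusted p = 0.000444 and 0.000224). The coreceptors GAS1 and BOC fell by 2.08 and 2.18 in FSB minus F (limma BH-adjusted p = 0.000107 and 0.0167). BOC was at 85.5 and 94.3 FPKM in F replicates 2 and 3 but at 17.5 in F replicate 1, against 8.02 to 14.8 in the other 6 libraries, and its change was 0.01 in F_FSB minus FSB and -2.17 in F_FSB minus F (limma BH-adjusted p = 0.988 and 0.464). GAS1 was at 0.28 (limma BH-adjusted p = 0.176) in F_FSB minus FSB and at -1.80 (limma BH-adjusted p = 0.0296) in F_FSB minus F. The ligands SHH and IHH were below 0.1 FPKM in every library.

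The 24 members under the filter include the factors best known from other lineages. FOXA2, FOXB1, FOXB2, FOXI2, FOXI3, FOXL2, FOXR1 and FOXR2 were listed at 0 in all 9 libraries, where the depth is unknown and a single listed 0 sets no limit. With those 8, 17 members stayed under 0.1 FPKM. Among them, FOXJ1 had a highest value of 0.0722, FOXA1 of 0.0714, FOXQ1 of 0.0491 and FOXN4 of 0.0437. The highest values of FOXI1, FOXE1, FOXD3 and FOXN1 were 0.0287, 0.0282, 0.0250 and 0.0208 FPKM. Between 0.1 and 1 FPKM were 5 members: FOXH1 and FOXF2 above, FOXP3 at up to 0.232, FOXD4 at up to 0.224 and FOXA3 at up to 0.129 FPKM. FOXD4 has near-identical copies (FOXD4L genes) and is uncertain. FOXF1 and FOXO6 had 2.00 and 1.26 FPKM at their highest.

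These low levels were set beside markers of the tissues that the genes are known from. None of 9 endoderm markers, the tissue of the FOXA genes, passed the filter, nor of 8 markers of ciliated cells (FOXJ1) or 5 of thyroid (FOXE1). In any library, the summed FPKM was at most 3.73, 2.04 and 0.427 for these lists. A single marker passed in each of 2 further lists of 6: AMH, at up to 3.49 FPKM, of granulosa cells, the tissue of FOXL2, and CD4, at up to 4.91 FPKM, of T cells and blood, where FOXP3 is known. FSHR and CD3D, other markers of these lists, were at 0 in every library. FOXD3 was listed at 0 in F and F_FSB and at 0.00787, 0.0123 and 0.0250 FPKM in FSB, where the premigratory crest sum was highest. The largest parts of that sum were NGFR, the gene of the sorted marker CD271, SNAI2 and TFAP2A, at means of 120, 68.6 and 60.7 FPKM in FSB. SNAI2 was also at a mean of 63.1 FPKM in F. NGFR and TFAP2A were the 2 of 6 tested markers that were higher in FSB minus F, beside 28.5% of all genes. MSX1, SNAI2, SOX9 and TFAP2B did not pass there. SOX10, another defining factor of early crest, was at 0.0993, 0.0518 and 1.69 FPKM in FSB, so that replicate 3 alone was above 0.1 FPKM, and it was below 0.1 in F and F_FSB.

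**Figure D5:**
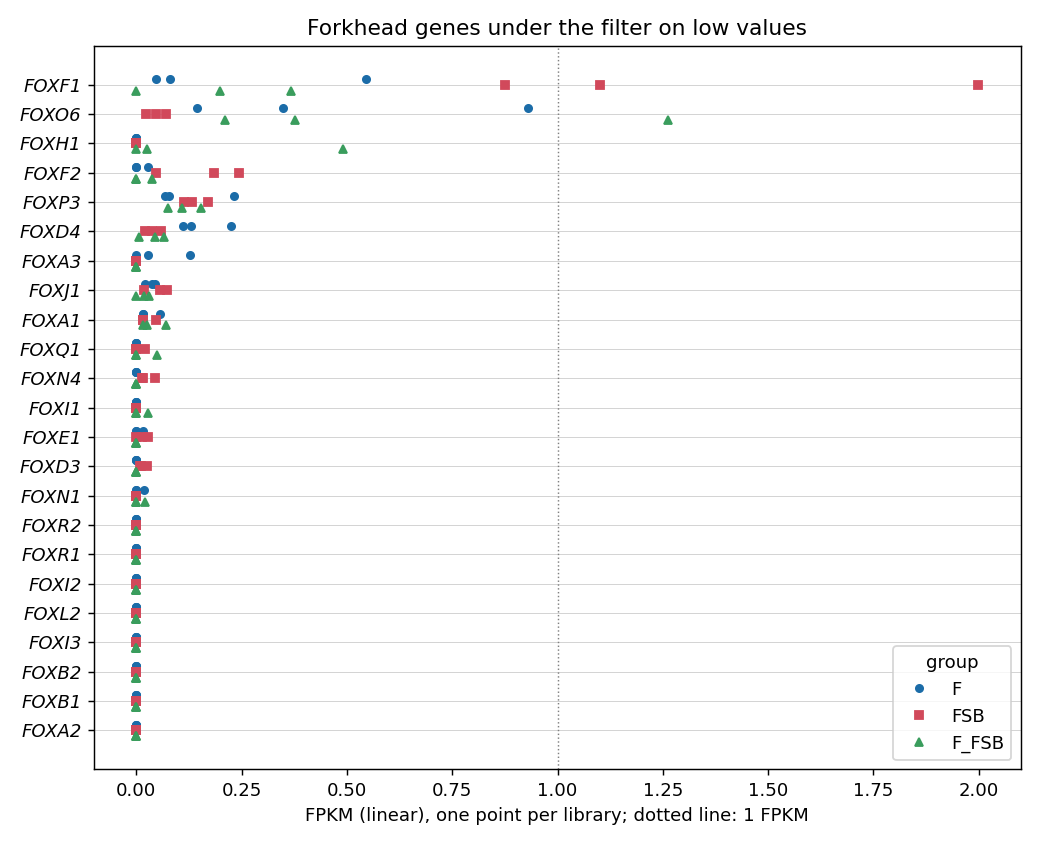
FPKM on a linear axis of forkhead genes named in the text that are under the filter on low values, with 1 point per library, coloured and shaped by group, and a dotted line at 1 FPKM. FOXF1 crosses the line in 2 FSB libraries and FOXO6 in 1 F_FSB library, and most other genes lie within 0.1 FPKM of 0.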

How the data were processed

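Each of the 9 libraries has a gene table with FPKM values made by the authors, who used TopHat2 2.0.12, Cufflinks 2.1.1 and the build GRCh37 per the submitters' processing notes. The kit was strand-specific per the labels' protocols. The sources used here do not state if fragments were counted by strand, and values of overlapping or antisense genes are uncertain. Each library was normalized by the authors to its own fragments. Groups came from the sample titles.

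Loci with a status other than OK in any library (95 of 25593) were left out, and the tested set was the 13216 genes with 3 or more libraries at 1 FPKM or above. Group means of log2(FPKM + 1) were fitted to all 9 libraries at once by limma 3.58.1 (R 4.3.3, trend in eBayes), with two-sided tests and p-values adjusted by Benjamini-Hochberg (BH) over the tested set. The labels do not say how cultures were started, so p-values measure the spread between these samples. At most 0.00586% of nonzero values were equal in a pair of libraries, so no library was a copy of another. That check cannot show that cultures were independent. Each library was counted as its own replicate because the libraries are given as biological replicates. Tables were joined with Python 3.11.15 and pandas 2.3.3, and starts were converted to count from 1.

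The members and gene lists were chosen with earlier results of these data known. Every member above the filter is named with its values in each library (FOXJ2 and FOXJ3 by their range), the others by their highest FPKM, and each pathway list by up to 3 genes with the smallest adjusted p in each of the first 2 comparisons. Some genes that this rule takes are not reported here. CDC25B, LIN28A, POU5F1, ANPEP, CSPG4, MCAM, AMH, CD4 and the crest markers are named after their values were seen. Alternatives covered the pseudocount, filter, scaling, trend, a replicate block, the 6 libraries compared and leaving out each library. A planned comparison of forkhead proteins was not made because no protein sequences were used here.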

Additional observations from a re-analysis of the deposited data

How the results depend on the processing

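Over 19 alternatives no called forkhead change turned its direction. In FSB minus F the count of lower forkhead genes (2) became 5 with scaling by median ratios (with FOXC2, FOXJ2 and FOXJ3), 4 with quantile normalization (with FOXJ2 and FOXJ3), 4 with only the 6 libraries compared and 0 to 3 with each library left out, with 0 without FSB replicate 1 or 2 and 1 without F replicate 3 or FSB replicate 3. These counts are over the 20 tested members, with the 4 that passed the filter through a single group. Over all 13216 genes, lower calls were 1773 in the main fit, 2416 with median ratios and 2326 with quantile normalization. In F_FSB minus FSB the count of higher genes (5) became 2 with no filter on low values, 3 with scaling to the same sum and 2 to 5 with each library left out, with 2 without FSB replicate 2 or F_FSB replicate 2 and 3 without FSB replicate 1 or 3 or F_FSB replicate 1. The 5 include FOXS1, and over all genes the higher calls in F_FSB minus FSB were 1805, or 1175 with scaling to the same sum. In F_FSB minus F the count of all genes called (1) became 2 without a filter and 0 with the replicate block. It was 0 to 77 with each library left out, 77 of them without F replicate 1. The 1 forkhead gene among the 77 was FOXS1, for which no call is read because it passed the filter through F_FSB alone. The cause was not tested.

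Small changes that never passed turned sign. FOXP2 in FSB minus F was -0.043 with median ratios. With scaling to the same sum, FOXJ2 and FOXJ3 were -0.027 and -0.083 in F_FSB minus FSB, and FOXK1, FOXO4 and FOXP1 were -0.12, -0.027 and -0.017 in F_FSB minus F. With each library left out, FSB minus F ran from -0.20 to 0.18 for FOXL1 and from -0.32 to 0.53 for FOXP2. F_FSB minus FSB ran from -0.023 to 0.022 for FOXJ3 and from -0.030 to 0.37 for FOXP4. F_FSB minus F ran from -0.055 to 0.00044 for FOXN2, from -0.21 to 0.12 for FOXN3, from -0.13 to 0.37 for FOXP1, from -0.060 to 0.15 for FOXK1 and from -0.013 to 0.028 for FOXE3. Leaving out 1 library leaves groups of 2 and 3.

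Correlations of deviations from the group mean between same-numbered cultures were -0.05 to 0.07 for FSB and F and -0.14 to -0.01 for F_FSB and FSB. For F_FSB and F they were -0.03 to 0.29, with 1 over 0.1, that of the cultures numbered 1. So few values cannot decide whether the numbers pair cultures, and the main fit used no pairing. With the replicate block all genes called became 4842 in FSB minus F and 4983 in F_FSB minus FSB. In FSB minus F FOXC2 and FOXO4 then passed (limma BH-adjusted p = 0.0412 and 0.0375) and FOXP1 did not (0.0532), and in F_FSB minus FSB FOXK1 did not (0.0506). Scaling by median ratios moved the median change of all genes from 0.14 to 0.01 in FSB minus F, so changes near that size depend on the scaling. Depth is known only roughly, and values under about 0.1 FPKM are not read as expression.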
